A study of Mus musculus with 10 samples.

Results

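The 10 endothelial transcription factors Erg, Fli1, Ets1, Sox7, Sox17, Sox18, Gata2, Tal1, Lyl1 and Hhex were read from the deposited gene table by name, without use of their values. Each name matched 1 of the 54532 genes in the table, and all 10 were expressed highly enough to be tested. The series compared whole lungs at P14 (postnatal day 14) from wild-type C57/BL6 pups of either sex, 5 with increased pulmonary blood flow (IncPBF) and 5 sham operated. In the IncPBF group a needle was passed from the abdominal aorta through to the inferior vena cava at P7, which leaves a shunt between both vessels, and the sham pups had the laparotomy but no puncture. The values are FPKM, which are sequenced fragments divided by the length of the gene and scaled to the size of the library, and the question for these factors was whether their transcripts differed between the IncPBF lungs and the sham lungs.

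Endothelial cells line blood and lymphatic vessels, and their identity is kept by a small network of transcription factors that bind one another's genes and the genes of junctions and receptors. ETS factors such as Erg, Fli1 and Ets1 recognise a GGAA core in DNA, and SoxF factors act with them during vessel formation. Gata2 and Tal1 or Lyl1 can work in a complex that blood progenitors also use, and Hhex is an early endothelial and blood homeobox factor. In the postnatal lung the endothelium includes general capillary cells, aerocytes, which are the thin capillary cells of gas exchange, and the cells of arteries, veins and lymphatic vessels.

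The lungs had between 16103423 and 20318525 fragments on genes, and the 10 factors had between 245 and 9944 fragments each per lung, so that counting error was small for most of them. Such limits cover counting error only. The labels name no litter, batch or sex. Xist, the RNA that silences 1 X chromosome in female cells, had 52.4 to 66.5 FPKM in 4 IncPBF lungs (2 to 5) and at most 0.0770 FPKM in IncPBF lung 1 and the 5 sham lungs, and Ddx3y, a gene of the Y chromosome, was at least 18.6 FPKM in the latter 6 lungs and at most 0.00926 FPKM in the former 4. The group comparison therefore cannot be told apart from a comparison of Xist-expressing with other lungs except through IncPBF lung 1. The 10 factors are given with and without that lung and with Xist as a covariate where these change a call. The gene lists are given with the covariate, apart from the gene families, which are given without it.

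The promoters are shown for 3 factors as sequence context for the values that follow. Gata2 had the largest difference of the 10, Erg a smaller one, and Tal1 none that passed the test. RefSeq promoters on GRCm38.p6 were given for 5 of the 10 factors, with 9 windows in all. The windows shown are those at the annotated start of each gene, and RefSeq gives 2 further windows for Erg and 1 further window each for Gata2 and Tal1, at inner starts. Each run is the 250 bases before a transcription start, read 5′ to 3′ on the strand of the gene, and capitals mark GGAA, the ETS core, or TTCC, the same core on the other strand.
Gata2, chr6:88193641-88193890, plus strand: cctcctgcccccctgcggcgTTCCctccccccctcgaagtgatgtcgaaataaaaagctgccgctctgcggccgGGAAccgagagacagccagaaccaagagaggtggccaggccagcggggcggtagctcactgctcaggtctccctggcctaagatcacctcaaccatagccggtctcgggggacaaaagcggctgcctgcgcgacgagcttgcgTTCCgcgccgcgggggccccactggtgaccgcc
Erg, chr16:95586594-95586843, minus strand: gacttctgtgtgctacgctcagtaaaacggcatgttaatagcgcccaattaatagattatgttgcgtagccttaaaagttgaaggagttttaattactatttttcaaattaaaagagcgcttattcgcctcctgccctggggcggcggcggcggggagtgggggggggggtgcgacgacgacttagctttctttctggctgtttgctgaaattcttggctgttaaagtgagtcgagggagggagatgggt
Tal1, chr4:115056176-115056425, plus strand: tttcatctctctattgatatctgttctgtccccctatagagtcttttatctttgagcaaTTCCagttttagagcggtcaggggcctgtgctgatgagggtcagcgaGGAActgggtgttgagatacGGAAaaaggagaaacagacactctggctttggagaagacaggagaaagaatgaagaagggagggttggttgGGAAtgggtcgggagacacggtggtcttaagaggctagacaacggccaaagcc

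The Gata2 window held 3 such cores in 250 bases with a GC content of 67.2%. The Tal1 window held 4 cores and 1 match to AGATAA, bound by GATA factors, counted on both strands, and the Erg window shown held neither. The other Erg windows held 2 cores with 1 AGATAA and 4 cores with none. Of 32815 windows of this length before all RefSeq starts, 93.4% held at least 1 GGAA core and 9.99% at least 1 AGATAA. The matches describe the letters of these windows and not binding.

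Gata2 was the factor with the clearest difference between the groups. This zinc finger factor binds GATA motifs and acts in endothelial cells, blood progenitors and mast cells. Its gene lies on chromosome 6 of GRCm38 from 88193891 to 88207032 on the plus strand (ENSMUSG00000015053). Gata2 was 47.4, 42.2, 37.0, 33.4 and 50.4 FPKM in sham lungs 1 to 5. It was 23.5, 20.1, 20.7, 23.1 and 22.5 FPKM in IncPBF lungs 1 to 5. All 5 IncPBF lungs lay below the lowest sham lung, as was the case for 11.2% of all genes tested, and the spread within the IncPBF group was small against the gap. The mean fell from 42.1 ± 7.05 FPKM to 22.0 ± 1.51 FPKM (SD, n = 5 per group), which is 52.2% of the sham mean. On the scale of log2(FPKM + 0.1) the difference was -0.92 (standard error 0.11, 95% interval -1.15 to -0.69, adjusted p = 0.000121 from limma), and the exact two-sided permutation test gave p = 0.00794, the smallest that 5 lungs against 5 allow. Among all 15388 genes tested, 255 (1.66%) were called lower with a log2 difference at least as large. In bulk RNA, fewer cells of a type and less RNA per cell cannot be told apart, for this and every other gene described.

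Of the 10 factors, 3 were called lower and 1 higher at an adjusted p under 0.05, against a background of 32.3% of all genes tested (16.2% lower and 16.1% higher). The 4 calls of 10 are thus close to the share among all genes, and close to the 31.1% of the 936 tested genes that the table assigns to a transcription factor family. Their median log2 difference was -0.15, that of the family genes was -0.03, and that of all genes was 0.01. When every lung was scaled to the same total of fragments on genes, 11.6% of all genes were called lower and 23.1% higher, and 3 of the 10 factors (Gata2, Erg and Fli1) were called against 34.7% of all genes.

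**Figure D1:**
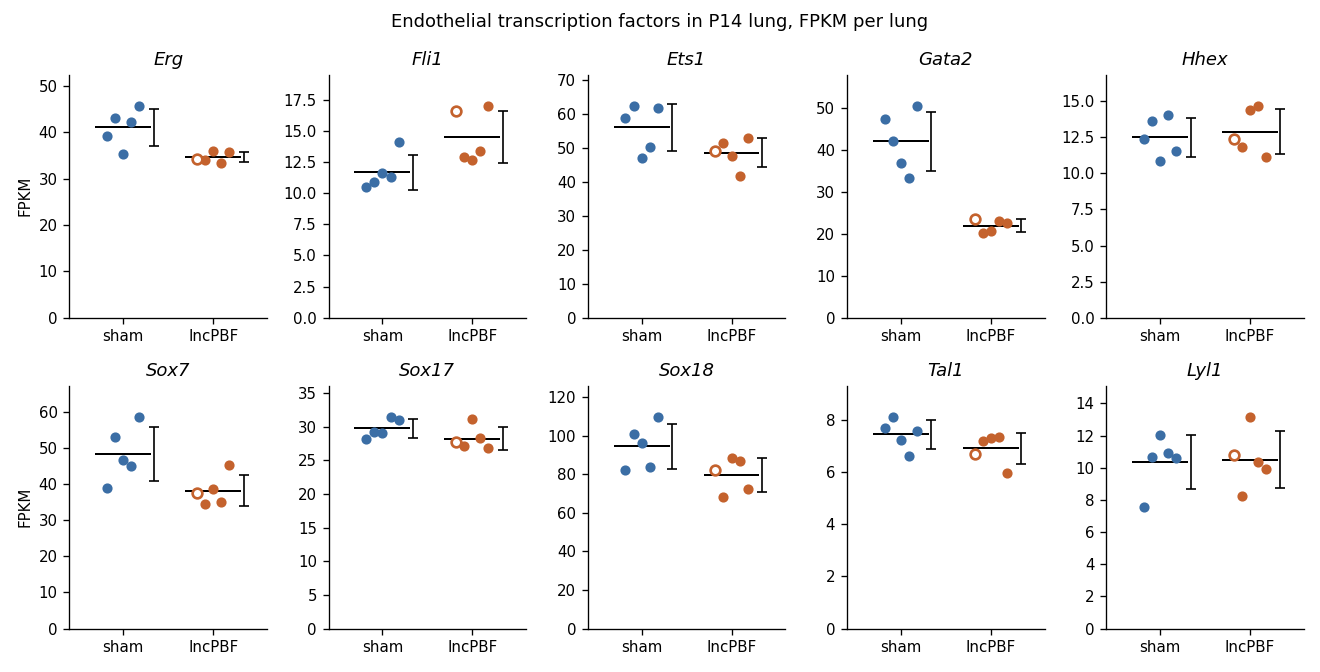
FPKM of the 10 factors in each P14 lung, with sham lungs in blue and IncPBF lungs in orange, the open circle being IncPBF lung 1, where Xist was near 0. Horizontal lines are group means and bars are ± SD (n = 5 per group), and every axis starts at 0. Gata2 is the gene in which the groups do not overlap, with 33.4 to 50.4 FPKM in sham lungs against 20.1 to 23.5 FPKM after IncPBF.

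Erg and Fli1, the closest relatives among the ETS factors, moved in opposite directions as deposited. Both help to keep vascular endothelial cadherin and other junction genes active, and Fli1 is also used by megakaryocytes and lymphocytes. Erg (ENSMUSG00000040732, chromosome 16 from 95359169 to 95586593, minus strand) was 39.2, 43.1, 35.4, 42.2 and 45.6 FPKM in sham lungs 1 to 5 and 34.3, 34.1, 36.0, 33.4 and 35.8 FPKM in IncPBF lungs 1 to 5. Sham lung 3 was the only sham lung among the IncPBF values, and 3 of 5 IncPBF lungs lay below every sham lung. Erg fell from 41.1 ± 3.93 to 34.7 ± 1.12 FPKM, which is a log2 difference of -0.24, with a standard error of 0.07 (adjusted p = 0.0187 from limma).

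Fli1 (ENSMUSG00000016087, chromosome 9 from 32422204 to 32542861, minus strand) was 10.5, 10.9, 11.6, 11.3 and 14.1 FPKM in sham lungs 1 to 5. In IncPBF lungs 1 to 5 it was 16.6, 12.9, 12.7, 13.4 and 17.0 FPKM. IncPBF lungs 1 and 5 were above every sham lung, the other 3 exceeded 4 of the 5 sham lungs, and sham lung 5 lay within the IncPBF range. The mean rose from 11.7 ± 1.40 to 14.5 ± 2.11 FPKM, which is a log2 difference of 0.30, with a standard error of 0.11 (adjusted p = 0.0463 from limma). This call was lost when any of 7 lungs was left out, namely IncPBF lungs 1, 4 and 5 and sham lungs 1 to 4. Without IncPBF lung 1 the log2 difference was 0.25 with an adjusted p of 0.104 from limma. The ratio of Erg to Fli1 was 3.04 to 3.95 in the sham lungs and 2.06 to 2.84 in the IncPBF lungs, with no overlap. Ratios also failed to overlap for Fli1 with Ets1, Sox7 and Sox18, and for Gata2 with every other factor. Those of all other pairs of the 10 factors overlapped, and the share among other gene pairs was not counted.

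Ets1, an ETS factor of endothelial cells and lymphocytes, is the neighbour of Fli1 on chromosome 9 (ENSMUSG00000032035, 32636221 to 32757820, plus strand). The genes lie 93359 bases apart on opposite strands, with 2 annotated genes between them. Ets1 was 59.0, 62.3, 46.9, 50.2 and 62.0 FPKM in sham lungs 1 to 5 and 49.1, 51.6, 47.6, 41.9 and 53.0 FPKM in IncPBF lungs 1 to 5. The groups overlapped, and the log2 difference of -0.20 (95% interval -0.41 to 0.01) did not pass the test (adjusted p = 0.125 from limma). Without sham lung 3, the sham lung with the lowest Ets1 and Erg, the difference was -0.26 and passed (adjusted p = 0.0384 from limma). Per unit of Ets1, Fli1 was 0.175 to 0.248 in the sham lungs and 0.250 to 0.338 in the IncPBF lungs, and these ranges just failed to meet.

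The SoxF factors Sox7, Sox17 and Sox18 are needed in overlapping ways for vessel formation, with Sox17 best known in arteries and Sox18 in lymphatic specification. All 3 had lower means in the IncPBF lungs, and 1 of them, Sox7, was called. Sox7 (ENSMUSG00000063060, chromosome 14 from 63943673 to 63950732, plus strand) was 39.1, 53.1, 46.7, 45.0 and 58.6 FPKM in sham lungs 1 to 5 and 37.5, 34.6, 38.8, 35.0 and 45.5 FPKM in IncPBF lungs 1 to 5. IncPBF lung 5 was above sham lungs 1 and 4, and the other 4 IncPBF lungs were below every sham lung. Its mean fell from 48.5 ± 7.53 to 38.3 ± 4.39 FPKM, which is a log2 difference of -0.33, with a standard error of 0.11 (adjusted p = 0.0377 from limma). The call was lost without any of IncPBF lungs 1 to 4 or sham lungs 2 and 5, at adjusted p values up to 0.0868, and when every lung was scaled to the same total, where the difference was -0.25 (adjusted p = 0.0694 from limma).

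Sox18, the most abundant of the 10 per length (ENSMUSG00000046470, chromosome 2 from 181669836 to 181671640, minus strand), was 82.0, 101, 96.2, 83.8 and 109.5 FPKM in sham lungs 1 to 5. In the IncPBF lungs it was 82.1, 68.4, 88.3, 86.7 and 72.1 FPKM. IncPBF lungs 2 and 5 were below every sham lung and the other 3 lay within the sham range. The log2 difference of -0.25 had a 95% interval of -0.46 to -0.03 and did not pass after adjustment (adjusted p = 0.0772 from limma), although it did without sham lung 1 (-0.30, adjusted p = 0.0494 from limma).

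Sox17 (ENSMUSG00000025902, chromosome 1 from 4490931 to 4497354, minus strand) was the steadiest of the SoxF factors. It was 28.3, 29.2, 29.0, 31.4 and 31.0 FPKM in sham lungs 1 to 5 and 27.7, 27.2, 31.1, 28.3 and 26.9 FPKM in IncPBF lungs 1 to 5. The means were 29.8 ± 1.36 and 28.2 ± 1.69 FPKM, and the log2 difference of -0.08 (95% interval -0.19 to 0.04) did not pass (adjusted p = 0.300 from limma). Of its exonic bases, 16.8% are shared with Gm37587 on the opposite strand, which was at most 0.164 FPKM. The strand setting of the counting is not given in the sources used here.

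The helix-loop-helix factors Tal1 and Lyl1, close relatives that pair with E proteins such as Tcf3, showed no difference that passed the test. Tal1 (ENSMUSG00000028717, chromosome 4 from 115056426 to 115071755, plus strand) was 7.70, 8.10, 7.24, 6.62 and 7.55 FPKM in sham lungs 1 to 5 and 6.70, 7.20, 7.32, 7.33 and 5.96 FPKM in IncPBF lungs 1 to 5. The log2 difference was -0.11 (95% interval -0.27 to 0.06, adjusted p = 0.294 from limma). Lyl1 (ENSMUSG00000034041, chromosome 8 from 84701457 to 84704715, plus strand) was 7.58, 10.7, 12.0, 10.9 and 10.6 FPKM in sham lungs 1 to 5 and 10.8, 8.24, 13.1, 10.4 and 9.95 FPKM in IncPBF lungs 1 to 5. Its groups covered nearly the same range, and the log2 difference of 0.02 had a 95% interval of -0.28 to 0.32 (adjusted p = 0.925 from limma). This interval is wide enough to hold a change of the size seen for Erg in either direction.

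Hhex (ENSMUSG00000024986, chromosome 19 from 37434810 to 37440731, plus strand) was 12.3, 13.6, 10.9, 14.05 and 11.5 FPKM in sham lungs 1 to 5. It was 12.4, 11.8, 14.4, 14.6 and 11.1 FPKM in IncPBF lungs 1 to 5. The values were interleaved, with a log2 difference of 0.04 (95% interval -0.17 to 0.25, adjusted p = 0.765 from limma). Its FPKM rest on a length of 1918 bases in the table, whereas the annotated exons of all its transcripts cover 5056 bases, so its place in the order of levels depends on that length.

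By mean FPKM the sham lungs ordered the factors as Sox18, Ets1, Sox7, Gata2, Erg, Sox17, Hhex, Fli1, Lyl1 and Tal1. In the sham lungs the ranges of neighbours did not overlap between Sox18 and Ets1, between Erg and Sox17 and between Sox17 and Hhex, and all other neighbours overlapped. In the IncPBF lungs Gata2 dropped from rank 4 to rank 6, behind Erg and Sox17, and Fli1 stood one place above Hhex although 2 of 5 lungs had the reverse order. Gata2 and Sox17 were the only pair of the 45 possible whose order differed in every lung. Gata2 exceeded Sox17 in 5 of 5 sham lungs and Sox17 exceeded Gata2 in 5 of 5 IncPBF lungs. The ratio of Sox17 to Gata2 ran from 0.596 to 0.941 in the sham lungs and from 1.18 to 1.51 in the IncPBF lungs.

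The factors were also described against genes that most endothelial cells express. Of 24 pan-endothelial genes, all tested, 14 were called lower and 2 higher, against 16.2% and 16.1% of all genes, with a median log2 difference of -0.30, and 8 were not called. The exact permutation test called 9 of the 24, against 23.2% of all genes, and the fit with Xist as a covariate 2, against 4.82%. The largest falls were Ptprb (-0.83), a phosphatase of the Tie2 receptor pathway, Clec14a (-0.55), a lectin of the endothelial surface, Calcrl (-0.51), the receptor for adrenomedullin, Tek (-0.47), which encodes Tie2, and Flt1 (-0.46), a VEGF receptor. The rises were Cd34 (0.34), a surface sialomucin, and Egfl7 (0.28), a secreted endothelial protein. The mean log2 FPKM of the list was 5.90 to 6.21 in sham lungs against 5.80 to 5.88 in IncPBF lungs, with sham lung 3 the lowest of the sham lungs.

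Relative to that mean, 3 of the 10 factors were called, against 47.6% of all genes, whose median moved to 0.26. Gata2 remained lower by this measure, at -0.67 (95% interval -0.87 to -0.48, adjusted p = 0.000223 from limma), so its fall exceeded that of the average pan-endothelial gene. Fli1 was higher at 0.55 (adjusted p = 0.00239 from limma) and Hhex higher at 0.29 (adjusted p = 0.0281 from limma), which for Hhex was within 0.03 of the shift of all genes. Erg, Sox18 and Ets1 lay at 0.01, 0.00 and 0.05, each with a 95% interval that included 0, and Sox7 at -0.08. Subtracting that mean adds the same amount to the log2 difference of every gene, since the list fell. Falls smaller than the average of the list therefore turn sign by construction, as for Erg, Sox18, Ets1, Sox17 and Tal1. The lower Erg and Sox7 values as deposited were no longer called when each lung was set against its own endothelial genes. How much of each fall reflects the number of endothelial cells was not tested.

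**Figure D2:**
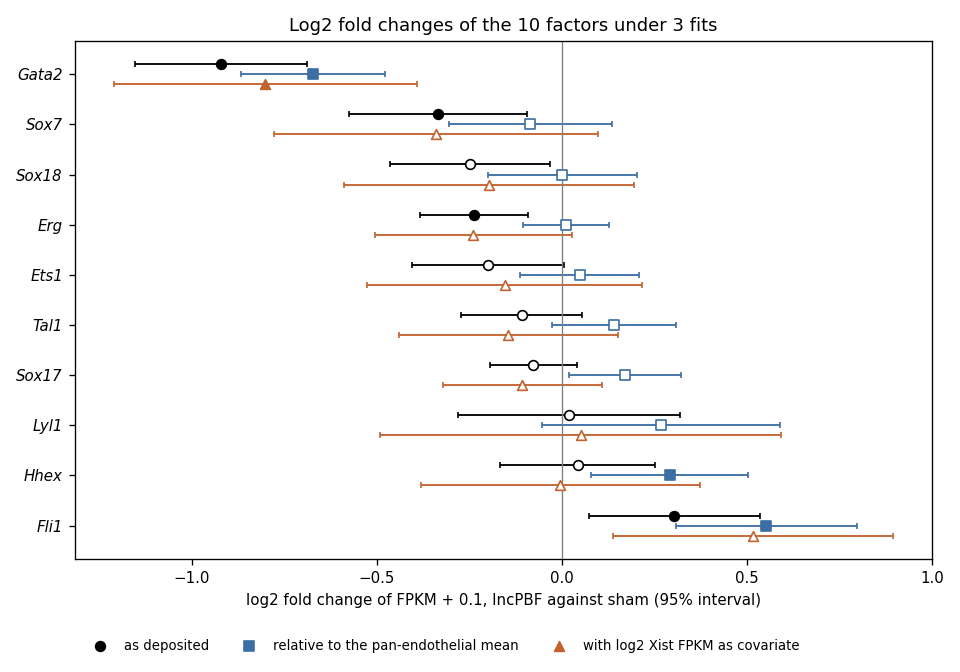
Log2 differences (IncPBF against sham, FPKM + 0.1) of the 10 factors with 95% intervals, as deposited (black), relative to the pan-endothelial mean of each lung (blue) and with log2 Xist FPKM as a covariate (orange). Filled marks had an adjusted p under 0.05. Gata2 is filled in all 3 fits, at -0.92, -0.67 and -0.80, while Erg and Sox7 are filled only as deposited.

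With log2 Xist FPKM as a covariate, Gata2 was the only one of the 10 factors called (-0.80, 95% interval -1.21 to -0.39, adjusted p = 0.0374 from limma), against 4.82% of all genes. Erg kept its size at -0.24 with a 95% interval of -0.50 to 0.03 (adjusted p = 0.293 from limma), and Fli1 was 0.52 (adjusted p = 0.117 from limma). Sox7 was -0.34 with a 95% interval of -0.78 to 0.10 (adjusted p = 0.366 from limma). In that fit the group difference rests mainly on IncPBF lung 1. That lung, the only IncPBF lung without Xist, had 23.5 FPKM of Gata2, the highest of its group and below the lowest sham lung. Without it, Gata2 was -0.94 (adjusted p = 0.000401 from limma), Erg -0.23 (adjusted p = 0.0404 from limma) and Sox7 -0.33 (adjusted p = 0.0694 from limma). With the comparison restricted to the 6 lungs with Xist near 0, which was chosen after the data were seen and leaves IncPBF lung 1 alone against the 5 sham lungs, Gata2 was -0.82 and did not pass (adjusted p = 0.142 from limma). Sex and surgery cannot be told apart in these lungs beyond what that 1 lung shows.

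Other transcription factors of endothelial cells went both ways. Of 36 listed, 33 were tested, and 8 were called lower and 10 higher (54.5%, against 32.3% of all genes), with a median of 0.07. With Xist as a covariate 5 of the 33 were called, against 4.82% of all genes. The 5 largest falls were Foxo1 (-0.70), the forkhead factor restrained by insulin and VEGF signalling, Epas1 (-0.69), the hypoxia-inducible factor HIF2A, Hey1 (-0.58) and Hey2 (-0.56), effectors of Notch in arteries, and Cbfa2t3 (-0.51), a corepressor that joins the Tal1 complex. Epas1 fell from 531 to 717 FPKM in the sham lungs to between 380 and 401 FPKM in the IncPBF lungs. Of these 5 falls none was as large as that of Gata2 on the log2 scale.

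The 5 largest rises on that list were Tcf15 (1.42), a partner of Meox2 in the capillary endothelium of the heart, Meox2 itself (1.25), Klf4 (0.57), a factor induced by laminar shear, Bcl6b (0.53), an endothelial repressor, and Mef2c (0.44), which controls Klf factors. Meox2 was 12.3 to 19.3 FPKM in the sham lungs and 33.3 to 41.7 FPKM in the IncPBF lungs. Tcf15 was 1.08 to 1.35 FPKM and 2.18 to 4.97 FPKM in the same groups, from 20 to 25 fragments per sham lung and 40 to 84 per IncPBF lung. Neither gene overlapped between the groups, as was the case in either direction for 23.2% of all genes tested. The E proteins Tcf3 (0.33) and Tcf12 (0.18), partners of Tal1 and Lyl1, were also called higher, while Lmo2 (0.07) and Ldb1 (0.07), the bridging members of the Tal1 complex, did not pass. These E proteins and bridging members were chosen for naming after their values were seen.

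**Figure D3:**
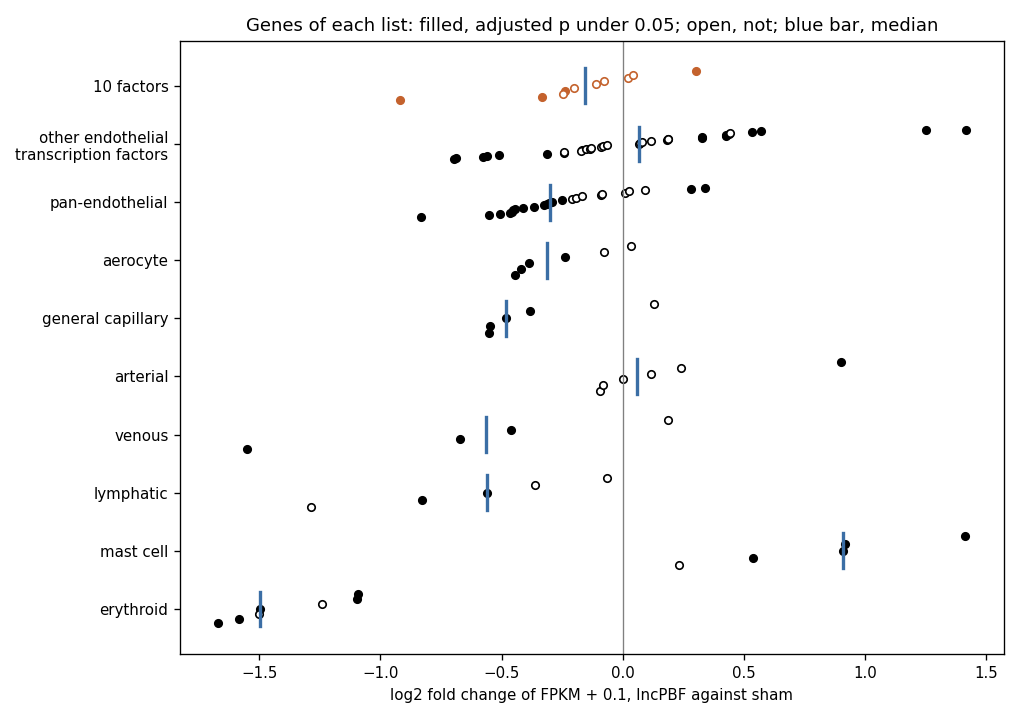
Log2 differences (IncPBF against sham, FPKM + 0.1) of each tested gene in the 10 factors (orange) and in 9 lists of other genes (black), filled where the adjusted p was under 0.05, with the median of each list as a blue bar. The medians were -0.15 for the 10 factors, 0.07 for the other endothelial transcription factors and -0.30 for the pan-endothelial genes.

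Markers of endothelial subtypes were read beside the 10 factors, and their counts stand against the same 16.2% of all genes called lower and 16.1% called higher. Of 5 general capillary genes, 4 were called lower, among them Kit (-0.55), a receptor tyrosine kinase, Plvap (-0.55), of fenestral diaphragms, and Cd93 (-0.48). Aerocyte genes were called lower in 4 of 6, with Car4, Chst1 and Ednrb at -0.45, -0.42 and -0.39. Venous genes were lower in 3 of 4 tested, namely Slc6a2 (-1.55), Vwf (-0.67) and Vegfc (-0.46), and lymphatic genes in 2 of 5 tested, namely Lyve1 (-0.83) and Flt4 (-0.56). Of 6 arterial genes 1 was called, the gap junction gene Gja5, which rose by 0.90. With Xist as a covariate limma called 2 general capillary, 0 aerocyte, 2 venous, 1 lymphatic and 0 arterial genes, against 4.82% of all genes. In that fit 3, 1, 3, 2 and 1 had an unadjusted p under 0.05. The exact permutation test called 4, 1, 3, 2 and 1, against 23.2% of all genes. The summed FPKM of the general capillary, venous and lymphatic lists did not overlap between the groups, and those of the aerocyte and arterial lists did. Among single genes 23.2% did not overlap in either direction, and the share among sums of other gene lists was not counted. Such a sum follows the most abundant genes of its list and does not describe each gene in it.

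Several of the 10 factors are also used by blood cells, and markers of those cells were read beside them, against the same shares of all genes called lower (16.2%) and higher (16.1%). Mast cell genes, of which 5 of 8 were tested, rose in 4, with Cma1 at 1.41, Tpsb2 at 0.92 and Mcpt4 at 0.91, and their summed level was 6.09 to 8.84 FPKM in sham lungs against 9.48 to 13.8 FPKM in IncPBF lungs. The exact permutation test called 1 mast cell gene, against 23.2% of all genes. Limma with Xist as a covariate called 0 (1 with an unadjusted p under 0.05), against 4.82% of all genes. Erythroid genes were called lower in 5 of 7 tested, with Alas2 at -1.67, Hba-a1 at -1.58 and Hbb-bt at -1.50, and their summed level ran from 1466 to 2450 FPKM in sham lungs and from 253 to 1931 FPKM in IncPBF lungs. Of these 7, the exact permutation test called 1 and the fit with Xist as a covariate 1, against the same 23.2% and 4.82% of all genes. The erythroid range was wide within the IncPBF group, from IncPBF lung 4 to IncPBF lung 2. The part of mast and erythroid cells in the Gata2 difference was not tested.

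No T and NK cell gene of 7 tested was called by limma, none with an unadjusted p under 0.05, and none by limma-voom or the exact permutation test after adjustment. Of 5 B cell genes none was called by these tests and 1 had an unadjusted p under 0.05 in limma, and of 6 megakaryocyte and platelet genes none was called and none reached that level. Summed T and NK cell genes were 10.6 to 13.3 FPKM in sham against 11.1 to 14.5 FPKM in IncPBF lungs, and B cell genes were 31.3 to 42.9 against 28.0 to 35.0 FPKM. Megakaryocyte and platelet genes summed to 17.1 to 45.5 FPKM against 18.6 to 30.0 FPKM. The summed marker levels of these cells, which use Fli1 and Ets1, overlapped between the groups, which does not show that they were equal. Log2 differences were negative for 5 of 5 B cell, 4 of 7 T and NK cell and 5 of 6 megakaryocyte and platelet genes. Their medians were -0.19, -0.02 and -0.04, and with Xist as a covariate -0.11, 0.24 and 0.07. Of 6 myeloid genes Itgam rose by 1.04 and Lyz2 fell by 0.78, and of 6 epithelial genes Ager (-0.54) and Hopx (-0.50) were called lower. Of 6 mesenchymal genes 3 were called higher, Acta2 (1.57) and Col1a1 (0.35) among them, and Pdgfra (-1.36) lower. Among all genes 16.2% were called lower and 16.1% higher. With Xist as a covariate limma called 0 myeloid, 0 epithelial and 1 mesenchymal gene, against 4.82% of all genes. In that fit 2 of each list had an unadjusted p under 0.05. The exact permutation test called 2, 2 and 3, against 23.2% of all genes. No marker of these lists was at 0 in every lung, and the part of these cells in the differences of the 10 factors was not tested.

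The table assigns 26 genes to the ETS family, of which 22 were tested, 5 called lower and 4 higher (40.9%, against 32.3% of all genes), with a median of -0.08. All counts and differences of the ETS, Sox and GATA zinc finger families are from the fit without Xist as a covariate. With that covariate 4.82% of all genes were called, so these family differences cannot be told apart from those of sex. Erg was the fourth lowest by log2 difference, Ets1 the fifth and Fli1 the fourth highest. The largest difference in that family was in Etv4, a target and effector of FGF signalling, which was 0.305 to 1.11 FPKM in the sham lungs and 3.10 to 5.25 FPKM in the IncPBF lungs (2.47, adjusted p = 5.98e-05 from limma). Among 10 tested Sox genes, against the same share of all genes, 3 were called lower and 2 higher, and Sox7, Sox18 and Sox17 took the ranks 3, 4 and 5 from the lowest.

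Gata2 was the lowest of 11 tested genes of the GATA zinc finger family. That family also holds genes that are not Gata factors, such as Rere and Mta1. Of the 11, 4 were called lower and 1 higher (45.5%, against 32.3% of all genes). Gata3 (-0.35, adjusted p = 0.0497 from limma), Rere (-0.28, adjusted p = 0.0203 from limma) and Gata6 (-0.21, adjusted p = 0.0224 from limma) were also called lower. Gata5 moved the other way, from 4.85 to 7.41 FPKM in the sham lungs to between 11.9 and 15.3 FPKM in the IncPBF lungs, a log2 difference of 1.06 (adjusted p = 9.22e-05 from limma). Its opposite-strand gene Gata5os rose with it, from a mean of 0.292 to 0.769 FPKM, and without a known strand setting their fragments cannot be told apart where they overlap. Gata1, the erythroid and mast cell factor, and Gata4 stayed under the filter at means of 0.274 and 0.183 FPKM. The members of these families other than the 10 factors were named after their values were seen.

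**Figure D4:**
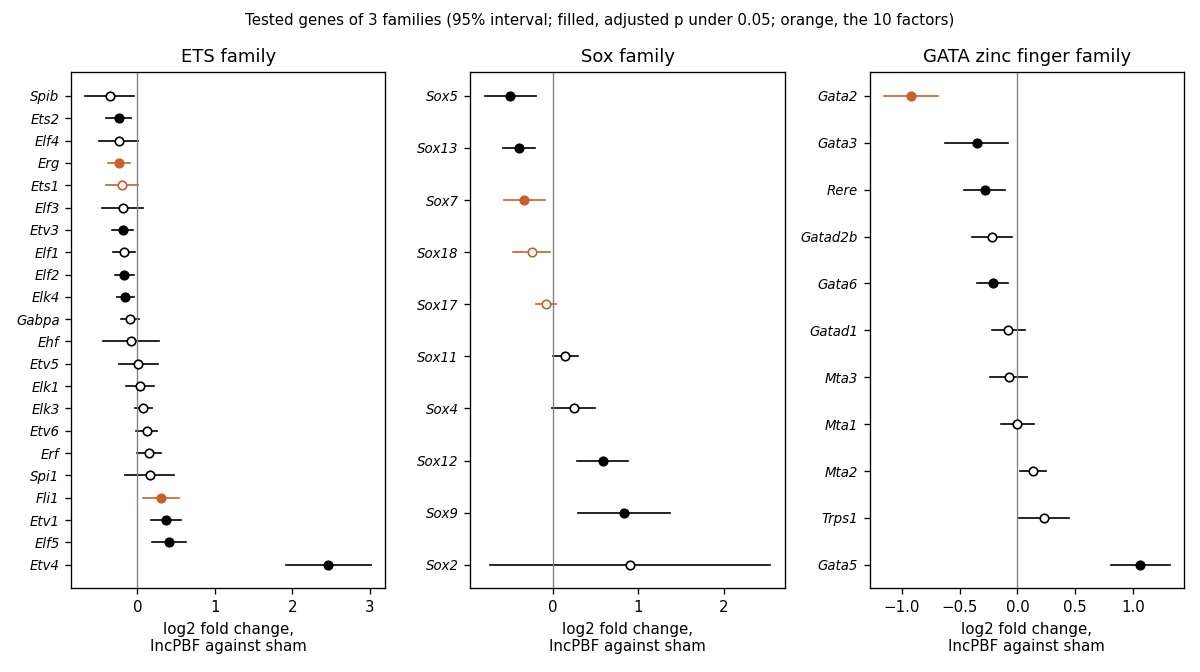
Log2 differences (IncPBF against sham, FPKM + 0.1) of the tested ETS, Sox and GATA zinc finger genes with 95% intervals, the 10 factors in orange, and filled circles where the adjusted p was under 0.05. Gata2 is the lowest of 11 GATA zinc finger genes at -0.92 and Gata5 the highest at 1.06, and the ETS factors Erg and Fli1 lie at -0.24 and 0.30.

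The mean log2(FPKM + 0.1) of the 10 factors was 4.62 to 4.85 in sham against 4.43 to 4.60 in IncPBF lungs, highest in sham lung 5. Over the 10 lungs, the genes whose deviations from their group means were most like those of this mean were Bysl, Tmem184b, Cdc42ep1, Rnf122 and Slc25a29, with Pearson r of 0.97, 0.97, 0.96, 0.96 and 0.95. These r are a description over 10 lungs that share library scaling. They were picked as the highest among the 15388 genes tested, leaving out the 10 factors. How high the largest r of so many genes would be by chance was not tested. Of the 5, Bysl was called higher (0.51), Cdc42ep1 (-0.27) and Slc25a29 (-0.69) lower, and Tmem184b (-0.04) and Rnf122 (0.26) did not pass.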

How the data were processed

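Total RNA of 10 P14 lungs was made into NEBNext libraries and sequenced on a NovaSeq instrument. RNA was isolated with Trizol per the labels and with a column kit per the methods, and the methods describe perfusion with PBS for lungs that were then fixed. The authors deposited 1 table of FPKM, with gene lengths and positions. Aligner, counting software and strand setting are not given in the sources used here, and the submitters' processing notes name Bowtie 0.12.2 and the builds hg38, GRCm38 and mm10 with no role. Columns of IncPBF lungs use a different abbreviation from the titles, and they were matched by time, number and the absence of the word sham. Gene positions equal those of GENCODE M21 for 98.3% of shared genes and for all 10 factors.

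FPKM times length gave whole fragments for 100% of values within 0.01 fragments. Genes with a mean of at least 0.5 FPKM (15388) were compared on log2(FPKM + 0.1) with limma 3.58.1 (lmFit, eBayes with a trend) in R 4.3.3, with Benjamini-Hochberg adjustment over all genes tested. A gene was called at an adjusted p under 0.05. The exact permutation test was two-sided on FPKM over 252 assignments. The pseudocount lowers fold changes of low genes. The test was also run on simulated counts with a fixed spread and no effect of sex or litter. That run therefore does not cover such differences between the groups. Alternatives were the pseudocount, the filter, the scaling, the replicate number as a block, Xist as a covariate, eBayes without the trend, limma-voom on recovered fragments, exact permutation and each lung left out.

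The 10 factors and the gene lists were chosen with earlier results of these data known. The text names all 10 factors, up to 5 falls and 5 rises among called genes of the endothelial lists, up to 3 called genes of each other list, Xist and Ddx3y, and the 5 genes most like the factors, with exceptions said beside them. No 2 lungs agreed within sampling noise. The sources do not say which lungs share a litter, so p values measure the spread between these lungs.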

Additional observations from a re-analysis of the deposited data

How the results depend on the processing

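Gata2 kept its sign and its call in 23 of 24 alternatives, from -1.0 to -0.85 with 1 lung left out. The exception was chosen after the data were seen and kept only the 6 lungs with Xist near 0, 1 of them from the IncPBF group, assumed to vary like the sham lungs: Gata2 was -0.82 (adjusted p = 0.142 from limma). There 0 of the 10 factors and 0 pan-endothelial genes were called by limma (2 and 8 with an unadjusted p under 0.05), with 1 other endothelial transcription factor and 154 of all genes (1.0%). With the Xist covariate 1 factor, 5 other endothelial transcription factors, 2 pan-endothelial genes and 741 of all genes were called. The exact permutation test called 1 factor, Gata2, and 9 pan-endothelial genes, against 23.2% of all genes. With no filter 2 factors were called, against 13.4% of all genes, and with eBayes without the trend 2, against 31.2%. With 1 lung left out, 2 to 4 factors, 16 to 21 other endothelial transcription factors, 12 to 19 pan-endothelial genes and 3869 to 5234 of all genes were called, and Erg stayed called (-0.29 to -0.20). Erg was smaller and only just called with equal totals (-0.16, adjusted p = 0.0451 from limma) and with limma-voom (-0.16, adjusted p = 0.0468 from limma-voom). The exact permutation test did not call Erg (adjusted p = 0.0707 from that test). Fli1 lost its call in 12 of 24 alternatives (0.25 to 0.37 with 1 lung left out) and Sox7 in 14 (-0.41 to -0.26), and the cause was not tested. Signs turned under endothelial scaling for Erg (0.0107), Ets1 (0.0485), Sox17 (0.17), Sox18 (0.0014) and Tal1 (0.14), by construction since the list fell. Sox17 was also 0.0027 with equal totals and 0.0033 with limma-voom. Hhex was -0.0037 with the Xist covariate and -0.0049 in those 6 lungs, and ranged from -0.0051 to 0.0924 with 1 lung left out. Lyl1 ranged from -0.0871 to 0.10 and was negative without IncPBF lung 3 or sham lung 1. None of these turned values was called.

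Same-numbered lungs showed little tendency to deviate together (correlations -0.0675 to 0.0854, with 2 of 5 lungs closest to their own number). So few lungs cannot show whether the numbers pair them. With the replicate block 5 factors were called, Ets1 (-0.20, adjusted p = 0.0378 from limma) being added, and 4872 of all genes. The 10 factors had at least 245 fragments in each lung, whereas Tcf15 and 3 of the mast cell genes, Cma1, Tpsb2 and Mcpt4, rest on far fewer.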
